A study of Mus musculus with 42 samples.

Results

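A set of 548 T-cell receptor beta (TCRβ) clonotypes was taken from 5 mouse T-cell libraries because the deposited tables name TRBV22 as their V segment and give them an ordinary CDR3. The CDR3 is the loop at the join of the V, D and J segments that meets the peptide. A clonotype was 1 distinct CDR3 nucleotide sequence, and members had a CDR3 of letters alone, starting with Cys, ending with Phe and 8 to 20 residues long, called a standard CDR3 here. The tables held 31576 rows in all, of which 26765 had a standard CDR3 under any V name. The members were thus chosen by the listed V name and the CDR3 form, and neither is a result below.

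The T cells came from mice with floxed alleles of NIK, a kinase of the non-canonical NF-κB pathway, and a Cre driven by Foxn1, a gene of the thymic epithelium. All 6 mice of the series carried Foxn1Cre; mice called WT had the genotype Foxn1Cre x NIKfl/wt, and so were heterozygous for the floxed allele, and mice called KO were Foxn1Cre x NIKfl/fl. The 5 libraries, named in brackets as used below, were spleen CD8 cells of WT mouse 614 (WT CD8), spleen CD8 cells of KO mouse 617 (KO CD8), spleen CD4 cells of KO mouse 597 (KO splenic CD4), lung CD4 cells of KO mouse 617 (KO lung CD4) and thymus regulatory T cells of KO mouse 618 (KO Treg). CD4 and CD8 cells were gated as CD25- and CD62L+, and Tregs as CD4+ and CD25hi; the other 37 of the 42 samples were not analysed here. Each group had 1 library, so no value has a replicate check, intervals are exact Clopper-Pearson 95% intervals for shares, and they cover counting error alone. Ages were not given in the labels, and the assay reads neither Nik nor cell type genes, so genotype and gate could not be checked.

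V segments are joined to D and J segments in the developing thymocyte, and the germline end of the V segment supplies the first residues of the CDR3. The Trb locus lies on mouse chromosome 6. RefSeq (GRCm38.p6, the build also called mm10) lists TRBV22 at chr6:41212075-41212534 as a V segment pseudogene, that is, a V gene thought unable to encode a receptor chain. It lists TRBV31, also known as Tcrb-V14 or Vβ14, at chr6:41557693-41558371 as a V segment. TRBV31 is known for lying downstream of the constant genes in the opposite orientation, and mouse CDR3s made with it typically begin Cys-Ala-Trp (CAW). No row of the 5 tables named TRBV31.

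Almost all members began CAW. The start was found in 506 of the 548 members, or 92.3%, and their most frequent first 12 bases were TGTGCCTGGAGT, which read Cys-Ala-Trp-Ser. The sequences below, shown because they carry the common start, are the most read member of each library (in the WT CD8 library 1 of 2 with 11 reads), with the shared bases in capitals (12 bases, or the first 9 where the fourth codon differs), 5′ to 3′.

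WT CD8, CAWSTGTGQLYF, 11 reads: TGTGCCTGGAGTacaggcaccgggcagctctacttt
KO CD8, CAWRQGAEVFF, 97 reads: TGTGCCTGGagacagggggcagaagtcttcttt
KO splenic CD4, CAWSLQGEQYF, 700 reads: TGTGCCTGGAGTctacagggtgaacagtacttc
KO lung CD4, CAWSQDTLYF, 582 reads: TGTGCCTGGAGTcaggacaccttgtacttt
KO Treg, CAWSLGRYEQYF, 93 reads: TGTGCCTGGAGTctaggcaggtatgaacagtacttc

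The CAW start held in each library. It was carried by 133 of 148 members in WT CD8 cells (89.9%, 83.8 to 94.2), 24 of 26 in KO CD8 cells (92.3%, 74.9 to 99.1) and 76 of 79 in KO splenic CD4 cells (96.2%, 89.3 to 99.2). In KO lung CD4 cells it was carried by 123 of 133 (92.5%, 86.6 to 96.3) and in KO Tregs by 150 of 162 (92.6%, 87.4 to 96.1). These 5 intervals overlap one another. Outside the members, between 1.03% (WT CD8) and 3.72% (Treg) of the standard clonotypes of other V names started CAW. Of the 42 members that did not, 21 began CASS, the usual start of other TRBV chains, 19 began Cys-Ala but neither CAW nor CASS, and 2 lacked the Ala. The most read of them, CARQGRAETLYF in Tregs, had 44 reads, and 19 of the 42 had at most 2 reads.

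The bases after the shared start also recurred. Of the 506 CAW members, 361 (71.3%) carried all 12 shared bases, and the tables drew the V end after base 12 in 335 of those 361. As a share of all members, the 12 bases were at 56.1% (47.7 to 64.2) in WT CD8 and 42.3% (23.4 to 63.1) in KO CD8 cells. They were at 72.2% (60.9 to 81.7), 74.4% (66.2 to 81.6) and 68.5% (60.8 to 75.6) in KO splenic CD4, KO lung CD4 and KO Treg cells. The next base was C in 334 of the 361 (92.5%) and the next codon was CTA, for Leu, in 141 (39.1%). CAWSL was thus the leading start, with 217 of the 506 CAW members (42.9%), followed by CAWSP with 61 and CAWSR with 56. By library CAWSL opened 33.1% (25.2 to 41.8) of the CAW members in WT CD8 cells and 25.0% (9.77 to 46.7) in KO CD8 cells. It opened 48.7% (37.0 to 60.4), 51.2% (42.0 to 60.3) and 44.7% (36.6 to 53.0) in KO splenic CD4, KO lung CD4 and KO Treg cells. The 3 CD4-lineage shares lay above both CD8 shares. The KO CD8 interval overlapped all 3 of theirs, and the WT CD8 interval overlapped those of KO splenic CD4 and KO Treg cells and ended below that of KO lung CD4 cells.

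Among CAW clonotypes, nearly as many were listed under other V names as under TRBV22. There were 466 of them, against the 506 members, so TRBV22 took 52.1% of all 972. The others were listed under TRBV17 (117 clonotypes), TRBV24 (103), TRBV4 (101), TRBV28 (48), TRBV12-2 (46), TRBV12-1 (34), TRBV20 (10) and TRBV25 (3), and the remaining 4 under 3 further names. They carried the 12-base start in 361 of 466 (77.5%). The share was 70.1% for TRBV17, 68.3% for TRBV4, 69.6% for TRBV12-2 and 70.6% for TRBV12-1, beside 71.3% for TRBV22. It was higher for TRBV24, with 102 of 103 (99.0%), and TRBV28, with 39 of 48 (81.3%).

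**Figure D1:**
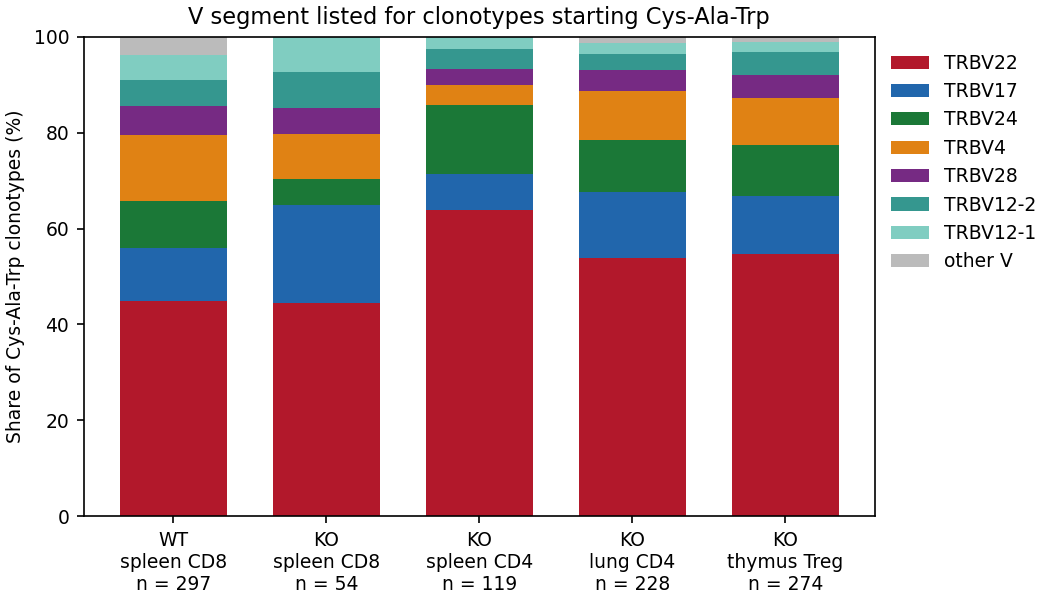
Stacked bars give the V segment that the tables list for each standard clonotype starting Cys-Ala-Trp, as a percentage of such clonotypes in the library (n under each bar). TRBV22 takes 44.4% to 63.9%, and TRBV17, TRBV24 and TRBV4 follow in most libraries.

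The names differed in where the V end was drawn. Under TRBV22 it fell after base 12 in 335 of the 506 CAW clonotypes, but after base 6 in 144 of the 145 without the 12 shared bases. Under TRBV17 it fell after base 5 in 114 of 117. Under TRBV4, TRBV12-2 and TRBV12-1 it fell after base 6 in 73 of 101, 42 of 46 and 32 of 34, so no more than the Cys and Ala codons were matched to V in those clonotypes. Of the TRBV24 clonotypes with the 12 bases, 102 of 102 went on with CT, and CTG was the next codon in 55 of them. With CTA as the next codon, 51.1% of 276 clonotypes were listed under TRBV22 and 14.1% under TRBV24. With CTG those shares were 29.7% and 49.5% of 111. A germline V sequence was not used here, so the origin of the CAW clonotypes was not tested.

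Individual sequences moved between names from library to library. Each table lists a CDR3 nucleotide sequence once, so a sequence has a single V name per library. Of the 531 distinct member sequences, 32 were found in at least 2 libraries, and 16 of those 32 carried more than 1 V name, 4 of them 3 names. Those 32 bore the name TRBV22 in at least 1 library by choice. Of CAW sequences under any V name found in at least 2 libraries, 21 of 39 (53.8%) had several V names. In comparison, 382 of 1295 standard sequences (29.5%) that did not start CAW and were found in at least 2 libraries had several V names. For 3 of the 4 member sequences with 3 names the bases were as follows, the same under each name.

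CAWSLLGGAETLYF: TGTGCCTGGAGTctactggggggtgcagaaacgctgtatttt
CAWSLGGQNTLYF: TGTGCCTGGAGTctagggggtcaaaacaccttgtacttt
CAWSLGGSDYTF: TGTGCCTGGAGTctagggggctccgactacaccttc

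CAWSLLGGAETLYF was listed under TRBV22 with 258 reads in KO splenic CD4 cells, under TRBV24 with 2 reads in KO lung CD4 cells and under TRBV17 with 2 reads in WT CD8 cells. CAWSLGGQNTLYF was listed under TRBV22 with 123 reads in KO splenic CD4 cells, under TRBV17 with 4 in KO lung CD4 cells and under TRBV4 with 6 in WT CD8 cells. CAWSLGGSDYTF was listed under TRBV22 with 25 reads in KO CD8 cells, under TRBV17 with 4 in KO lung CD4 cells and under TRBV24 with 4 in WT CD8 cells. In these 3 cases the TRBV22 entry was the most read. The same protein could also sit under both names in 1 library, from different bases. In KO lung CD4 cells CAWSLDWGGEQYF had 531 reads under TRBV22 and 823 under TRBV24.

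TRBV22, 531 reads: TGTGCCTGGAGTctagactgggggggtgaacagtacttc
TRBV24, 823 reads: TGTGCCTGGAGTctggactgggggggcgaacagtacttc

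Usage separated CD4-lineage from CD8 cells. Members made up 0.923% (0.781 to 1.08) of standard clonotypes in WT CD8 cells, 148 of 16038, and 1.04% (0.679 to 1.52) in KO CD8 cells, 26 of 2505. They made up 4.91% (3.91 to 6.08) in KO splenic CD4 cells, 79 of 1609, 4.26% (3.58 to 5.03) in KO lung CD4 cells, 133 of 3119, and 4.64% (3.96 to 5.39) in KO Tregs, 162 of 3494. The order was thus WT CD8, KO CD8, KO lung CD4, KO Treg and KO splenic CD4. The 2 CD8 libraries overlapped in their intervals, as did the 3 CD4-lineage libraries, and no CD8 interval reached a CD4-lineage one. In these 5 libraries TRBV22 had the widest range of the 18 V names with a mean share of at least 1%, a log2 range of 2.41. The series was known to show this lean before the members were chosen, so these shares are a description.

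**Figure D2:**
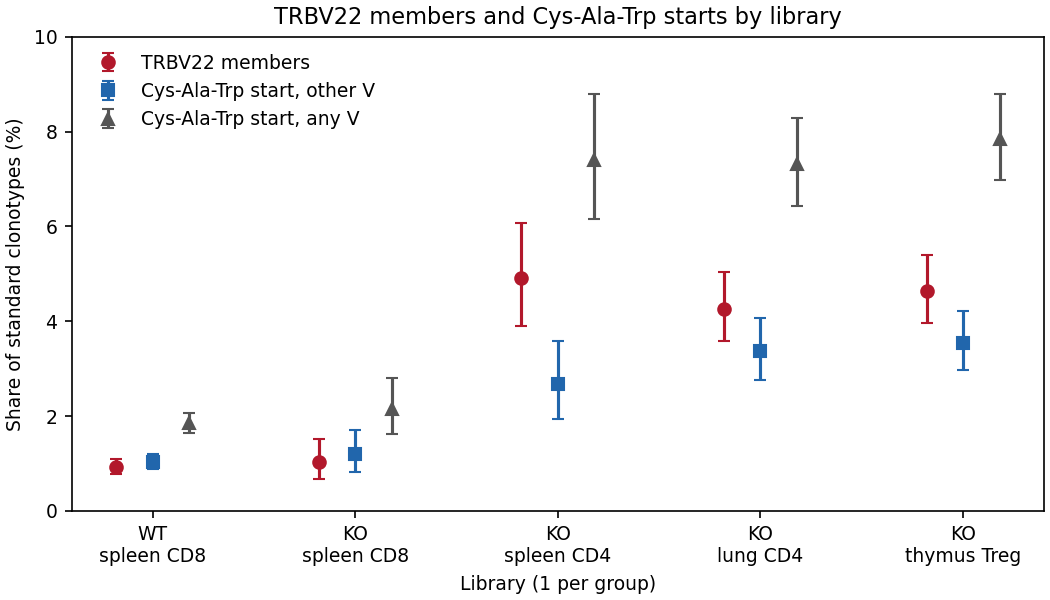
Points give the share of standard clonotypes (%) in each library for TRBV22 members, for clonotypes starting Cys-Ala-Trp under other V names and for both Cys-Ala-Trp sets together; bars are exact 95% intervals for counting error. All 3 sets sit lower in the CD8 libraries, where no point exceeds 2.16%, than in the CD4-lineage libraries.

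Of the 20 V names compared in KO spleen, TRBV22 had the lowest ratio of CD8 to CD4 share. TRBV2 followed at 0.281 (0.200 to 0.396), and the intervals of these 2 names overlapped, so their order lies within counting error. Names with at least 1% in either library were compared, and one was called when its ratio was at most 0.8 or at least the inverse of 0.8, with a 95% log interval that left out 1. The ratio for members was 0.211 (0.136 to 0.328) for KO CD8 over KO splenic CD4 cells and 0.243 (0.16 to 0.369) for KO CD8 over KO lung CD4 cells, the latter pair from mouse 617. Calls were common in both pairs, 75% of 20 names in the first and 78.9% of 19 in the second, so a call by itself sets no name apart. Lineage and mouse differ together in the first pair, and lineage and organ in the second. By reads instead of clonotypes the ratios were 0.0364 and 0.0433.

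**Figure D3:**
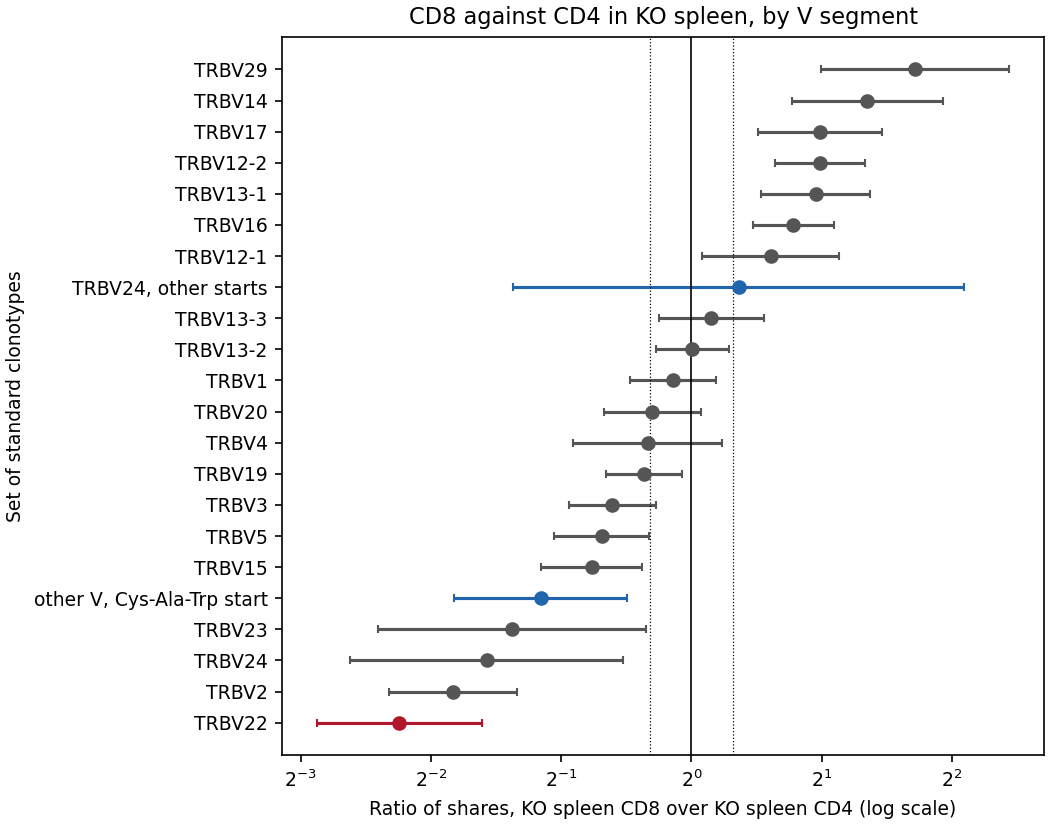
Points give the ratio of the share of standard clonotypes in KO CD8 cells to that in KO splenic CD4 cells on a log axis, with 95% intervals, for each V name with at least 1% in either library and for 2 sets cut by CDR3 start (blue). The dotted lines mark 0.8 and its inverse. TRBV22 lies lowest, at 0.211, with an interval that overlaps that of TRBV2. TRBV24 without its Cys-Ala-Trp clonotypes, from 8 and 4 clonotypes, lies at 1.28 with an interval (0.387 to 4.26) that holds 1.

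The same lean was measured in CAW clonotypes under other V names. They made up 1.02% (0.873 to 1.19) of standard clonotypes in WT CD8 cells and 1.20% (0.809 to 1.71) in KO CD8 cells. They made up 2.67% (1.94 to 3.58), 3.37% (2.76 to 4.06) and 3.55% (2.96 to 4.22) in KO splenic CD4, KO lung CD4 and KO Treg cells. The ratio of KO CD8 to KO splenic CD4 cells was 0.448 (0.282 to 0.711), and to KO lung CD4 cells 0.356 (0.238 to 0.532). Taken under any V name, CAW clonotypes were at 1.85% and 2.16% in the WT and KO CD8 libraries. They were at 7.40%, 7.31% and 7.84% in KO splenic CD4, KO lung CD4 and KO Treg cells. Their ratio of KO CD8 to KO splenic CD4 cells was 0.291 (0.213 to 0.400). TRBV22 held 63.9% (54.6 to 72.5) of the CAW clonotypes in KO splenic CD4 cells and 44.8% (39.0 to 50.6) in WT CD8 cells, so the listing itself was not in a fixed proportion.

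CAW clonotypes made up most of what was listed under some other V names. They were 3 of 4 under TRBV25 and the single clonotype under TRBV18. All 48 standard clonotypes under TRBV28, which RefSeq lists as a V segment pseudogene, started CAW, as did 103 of 146 under TRBV24. TRBV24 was lower in KO CD8 than CD4 cells with all its clonotypes (0.439% against 1.31%, ratio 0.336, 0.163 to 0.696). Without those starting CAW it stood at 0.319% and 0.249%, from 8 and 4 clonotypes, with a ratio of 1.28 (0.387 to 4.26). Between the CD8 libraries these remaining TRBV24 clonotypes were at 0.319% in KO and 0.0935% in WT cells, 8 and 15 clonotypes, a ratio of 3.41 (1.45 to 8.05). Genotype and mouse differ together in this pair. There TRBV17 and TRBV4 without CAW clonotypes had ratios of 0.961 (0.802 to 1.15) and 0.815 (0.605 to 1.10), and neither was called. TRBV17 was higher in KO CD8 than CD4 cells with its CAW clonotypes (ratio 1.98, 1.43 to 2.76) and without them (2.28, 1.59 to 3.29). TRBV4 was called neither with its CAW clonotypes (0.792, 0.532 to 1.18) nor without them (0.811, 0.533 to 1.24).

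No difference in the members' share between genotypes or among the CD4-lineage libraries exceeded counting error. In CD8 cells of spleen, where genotype differed (mice differ too), the ratio of KO mouse 617 to WT mouse 614 was 1.12 (0.743 to 1.70), while 5.56% of 18 V names were called. By reads this ratio lay on the other side of 1, at 0.395. For KO lung CD4 over KO splenic CD4 cells it was 0.868 (0.662 to 1.14) and for KO Treg over KO splenic CD4 cells 0.944 (0.726 to 1.23), with 10% of 20 names called in each. A difference of the size these intervals allow was not detectable with 26 to 162 members per library.

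Among V names with a mean share of at least 1%, the one most like TRBV22 across the libraries was TRBV2 (Vβ4). Likeness was the distance between log2 shares, each centred on the name's own mean over the 5 libraries, among the 18 names with a mean share of at least 1%. TRBV2 lay at a distance of 0.957, with 1.62% in WT CD8, 1.84% in KO CD8, 6.53% in KO splenic CD4, 4.04% in KO lung CD4 and 4.06% in KO Treg cells. TRBV3 followed at 1.71 and TRBV15 at 1.72. TRBV24, rich in CAW clonotypes, had 0.274% in WT CD8, 0.439% in KO CD8 and 1.31% in KO splenic CD4 cells. It had 1.06% in KO lung CD4 and 1.06% in KO Treg cells. TRBV24 and TRBV28 lay below the cut on the mean, so their likeness to TRBV22 was not measured. TRBV2, unlike the members, was called lower in KO lung CD4 than in KO splenic CD4 cells (ratio 0.619, 0.481 to 0.796). It was also called lower in KO Treg than in KO splenic CD4 cells (0.623, 0.487 to 0.796).

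Members had fewer reads per clonotype than the other standard clonotypes. The median was 3 reads in WT CD8, 3 in KO CD8, 17 in KO splenic CD4, 6 in KO lung CD4 and 16.5 in KO Treg cells, against 7, 8, 29, 11 and 35 for other V names. CAW clonotypes of other V names had medians of 3, 3, 15, 4 and 11. Between 18 and 20 V names were ranked in each library by median reads, and TRBV22 held rank 1 to 3 from the lowest. Members held 0.316% of the reads of standard clonotypes in WT CD8 cells, 0.125% in KO CD8 cells, 3.43% in KO splenic CD4 cells, 2.88% in KO lung CD4 cells and 1.80% in Tregs. Since reads count amplified copies, the abundance of a clonotype's RNA and its amplification cannot be told apart.

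The most read members were smaller in the CD8 libraries than in KO CD4 cells. In WT CD8 cells the most read members had 11 reads, and in KO CD8 cells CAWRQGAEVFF had 97, which was 40.9% of all member reads there. KO splenic CD4 cells were led by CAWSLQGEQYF with 700 reads, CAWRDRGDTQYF with 332 and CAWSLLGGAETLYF with 258; the first had rank 18 by reads among standard clonotypes. KO lung CD4 cells had 3 members near each other in size, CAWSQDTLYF with 582 reads, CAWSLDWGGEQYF with 531 and a 15-residue member, printed below, with 481. Tregs were led by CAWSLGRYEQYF with 93, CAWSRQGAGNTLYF with 81 and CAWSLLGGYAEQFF with 80, and no Treg member took over 2.69% of the member reads.

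Of 531 member sequences, 17 (3.20%) were listed as TRBV22 in at least 2 libraries, and 32 (6.03%) were found there under any V name. The like share for other V names was not measured, so these counts do not set members apart. Per pair of libraries, the count of sequences listed as TRBV22 in both ran from 0 to 6. The 6 were shared by WT CD8 and KO lung CD4 cells, from different mice. The pair from mouse 617, KO CD8 and KO lung CD4 cells, shared 2, among them the most read of the recurring members.

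The 15-residue member of mouse 617: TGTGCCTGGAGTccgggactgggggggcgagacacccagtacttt

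It had 481 reads in the lung CD4 library and 3 in the spleen CD8 library. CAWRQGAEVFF had 97 reads in KO CD8 and 2 in WT CD8 cells, and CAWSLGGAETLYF 90 in KO splenic CD4 and 7 in KO lung CD4 cells. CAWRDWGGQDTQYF and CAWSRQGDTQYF had 62 and 41 reads in KO lung CD4 cells, and 1 and 3 in WT CD8 cells. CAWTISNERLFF had 49 in Tregs and 4 in KO splenic CD4 cells. These 6 were picked by total reads among the recurring members, and in each 1 library held most of the reads. The like was not measured for other recurring clonotypes, so this is a description.

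The J segment supplies the last residues of the CDR3, and its pairing in members was compared with that in other clonotypes. TRBJ2 segments were carried by 68.2% (60.1 to 75.6) of members in WT CD8 cells, 53.8% (33.4 to 73.4) in KO CD8 cells and 65.8% (54.3 to 76.1) in KO splenic CD4 cells. They were carried by 64.7% (55.9 to 72.7) in KO lung CD4 cells and 75.9% (68.6 to 82.3) in Tregs, and by 69.8%, 65.5%, 65.2%, 62.6% and 69.1% of other V names in the same order. Of 12 J segments, called by the same rule for members over other V names, 0% were called in WT CD8 cells and 8.33%, that is 1, in each of the KO libraries. For the other V names, 19.6% of V and J pairs were called in WT CD8, 8.33% in KO CD8, 5.26% in KO splenic CD4, 14.4% in KO lung CD4 and 11.1% in Treg cells. The members' share was thus lower in WT CD8, KO lung CD4 and Treg cells, equal in KO CD8 and higher in KO splenic CD4 cells. A call also depends on the number of clonotypes under a name, so these shares do not set members apart.

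TRBJ2-5 was the segment called in 2 libraries. It was carried by 27 of 133 members in KO lung CD4 cells (20.3% against 12.2% of other V names, ratio 1.66, 1.17 to 2.36) and 30 of 162 in Tregs (18.5% against 12.2%, ratio 1.52, 1.08 to 2.12). In KO splenic CD4 cells it was at 5.06% against 12.2%, with a ratio of 0.416 (0.159 to 1.09), so the 3 CD4-lineage libraries did not share a direction. TRBJ2-3 was called in KO splenic CD4 cells (15.2% against 7.19%, ratio 2.11, 1.22 to 3.67) and TRBJ1-2 in KO CD8 cells, with 4 of 26 members. CAW clonotypes of other V names carried TRBJ2-5 at 17.1% in KO lung CD4 cells, 12.9% in Tregs and 4.65% in KO splenic CD4 cells.

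Members had a mean CDR3 length within 0.446 residues of other V names in each library, and were shorter beyond counting error in WT CD8 cells. The mean was 13.0 ± 1.52 residues (SD over clonotypes) in WT CD8, 12.8 ± 1.17 in KO CD8, 13.1 ± 1.27 in KO splenic CD4, 13.1 ± 1.23 in KO lung CD4 and 13.4 ± 1.36 in Treg cells. The difference from other V names was -0.341 residues (95% interval -0.588 to -0.0954) in WT CD8 cells. It was -0.446 (-0.898 to 0.00588), -0.0513 (-0.339 to 0.236), 0.00789 (-0.207 to 0.223) and -0.207 (-0.422 to 0.00785) in KO CD8, KO splenic CD4, KO lung CD4 and Treg cells, where each interval held 0. Against CAW clonotypes of other V names the differences ran from -0.279 to 0.0857, and all 5 intervals held 0. From the lowest mean length, TRBV22 had rank 3 of 18 V names in WT CD8 and in KO CD8 cells. It had rank 7 of 20 in KO splenic CD4, 11 of 19 in KO lung CD4 and 5 of 19 in Treg cells. The shortest member had 8 residues (1 clonotype) and the longest 17 (4 clonotypes). Just outside the rule, 1 row under TRBV22 ran from Cys to Phe over 37 residues, and 1 of 14 residues started CAW and ended in Leu.

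**Figure D4:**
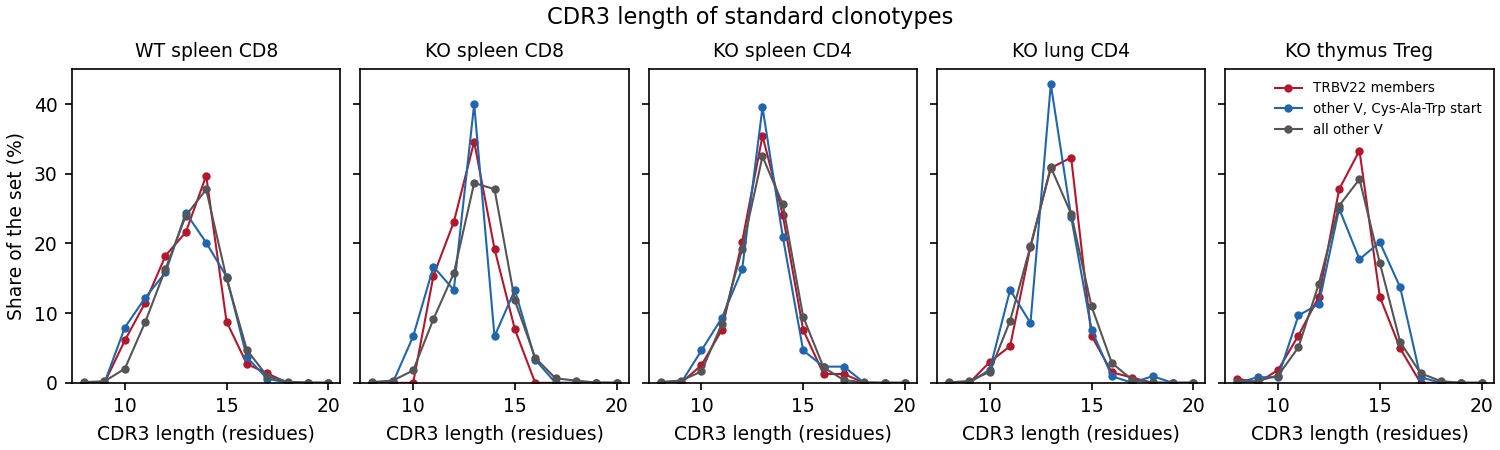
Lines give the percentage of clonotypes at each CDR3 length in residues, for TRBV22 members, for clonotypes starting Cys-Ala-Trp under other V names and for all other V names, in each library. The 3 sets peak at 13 or 14 residues, and the smaller sets are uneven at their low counts of 26 to 164 clonotypes.

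The middle of the CDR3 was less negative in members than in other clonotypes. Leaving out 4 residues at each end, charged side chains were added up. It averaged -0.169 in members and -0.429 in other V names in WT CD8 cells, a difference of 0.26 (0.138 to 0.382). The difference was 0.24 (0.0791 to 0.401) in KO splenic CD4, 0.168 (0.0129 to 0.322) in lung CD4 cells, with 0.163 (0.0326 to 0.294) in Treg cells. In KO CD8 cells it was 0.0945 (-0.169 to 0.358) and its interval held 0. By this charge TRBV22 had rank 2 from the highest of 18 V names in WT CD8 cells and rank 6 to 9 of 18 to 20 in the others. CAW clonotypes of other V names averaged -0.122, -0.267, -0.140, -0.286 and -0.306 in WT CD8, KO CD8, KO splenic CD4, KO lung CD4 and Treg cells. Members averaged -0.169, -0.308, -0.203, -0.256 and -0.222 in that order, so the less negative charge is not particular to members. Hydrophobic pairs at positions 6 and 7, counted from the first Cys, were too few to compare, with 3 in all members.

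A D segment was named more often for members than for all other V names together. None was listed for 16.2% (10.7 to 23.2) of members and 29.7% of other V names in WT CD8 cells, and for 11.5% (2.45 to 30.2) and 32.4% in KO CD8 cells. The pairs were 21.5% and 38.0% in KO splenic CD4, 21.8% and 36.1% in KO lung CD4, and 22.8% and 30.5% in Treg cells. TRBD2 was listed for 41.9%, 53.8%, 38.0%, 36.1% and 39.5% of members, against 33.2%, 29.4%, 27.4%, 25.6% and 29.1% of other V names, in the order of libraries used so far. CAW clonotypes of other V names had no D listed in 20.1%, 26.7%, 39.5%, 22.9% and 23.4%, and TRBD2 in 45.1%, 43.3%, 41.9%, 35.2% and 37.1%, in the same order. They were thus nearer to the members than all other V names were, except for the share without a D in KO splenic CD4 cells, and the trait is not particular to members. The V end was drawn earlier in members, with a median of 9 to 12 bases under V against 14 in other names. The part of that earlier V end in the naming of D was not tested.

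TRBV22 rows as a whole were often out of frame, and a class of long rows held most of these. The tables held 1217 rows under TRBV22, of which 756 were productive, that is, in frame without a stop codon (62.1%, against 90.4% of all other rows). Of these rows, 542 read Ser-Ala-Thr-Trp at their start, with a median length of 118 or 119 bases in each library, and 204 of them were productive. Rows with the first 9 bases of the members numbered 593, and 506 of them (85.3%) were productive. Other V names held 586 rows with those 9 bases, and 79.5% were productive.

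By library, the CAW rows were less often productive in WT CD8 cells than other rows. There, 134 of 177 TRBV22 rows with the 9-base start were productive (75.7%, 68.7 to 81.8), against 93.1% (92.7 to 93.6) of rows under other V names with the same first 6 bases. The other libraries gave 85.7% (67.3 to 96.0) in KO CD8, 92.7% (84.8 to 97.3) in KO splenic CD4, 93.8% (88.2 to 97.3) in lung CD4 cells, with 85.2% (79.1 to 90.1) in Treg cells. Rows of other V names with the 6-base start stood at 90.6%, 90.6%, 89.9% and 88.6% there, inside each of those 4 intervals. CAW rows of other V names were at 78.1% (71.9 to 83.5) in WT CD8, 71.4% (55.4 to 84.3) in KO CD8, 80.4% (67.6 to 89.8) in KO splenic CD4, 86.8% (79.4 to 92.2) in lung CD4 cells, with 77.7% (70.4 to 84.0) in Treg cells. The intervals of these rows ended below those of the rows with the 6-base start in WT CD8, KO CD8 and KO Treg cells, and overlapped them in both KO CD4 libraries. Median reads were 3 for productive and 2 for other TRBV22 rows with the 9-base start in WT CD8 cells, so these rows rest on few reads.

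**Figure D5:**
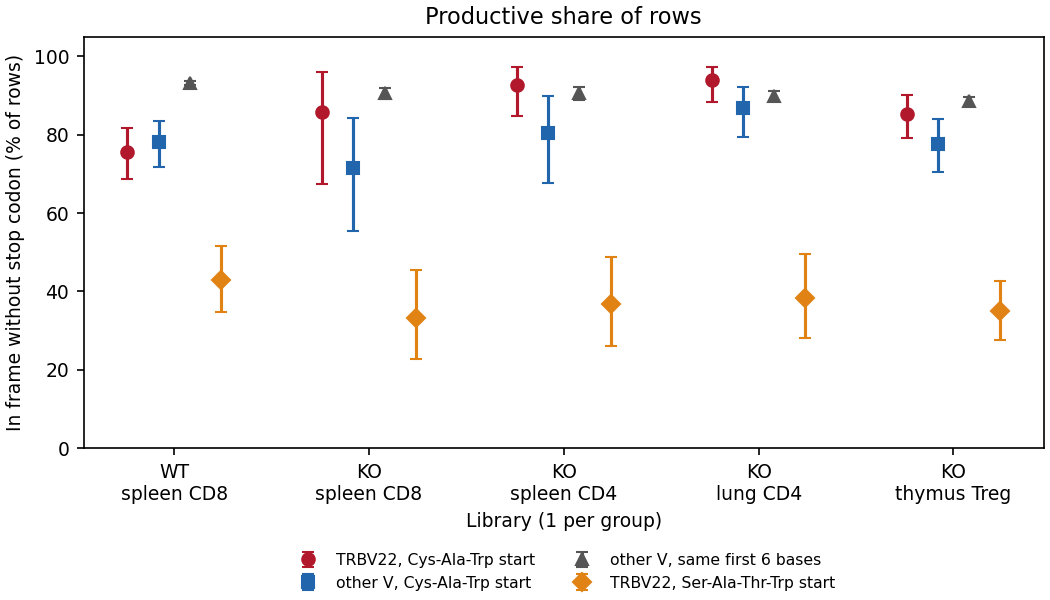
Points give the percentage of rows in frame without a stop codon, with exact 95% intervals, by library. TRBV22 rows starting Cys-Ala-Trp lie at 75.7% in WT CD8 and between 85.2% and 93.8% in the KO libraries, and the Ser-Ala-Thr-Trp rows lie between 33.3% and 43.0% throughout.

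The tables held 157688 reads for WT CD8, 194834 for KO CD8, 98655 for KO splenic CD4, 140826 for lung CD4 cells, and 205882 for the KO Treg library. Between 92.9% and 96.0% of productive clonotypes were standard, and between 9.33% and 17.5% of standard clonotypes had a single read.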

How the data were processed

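Per the labels' protocols, total RNA of the sorted T cells entered the SMARTer Mouse TCR a/b kit. Per the submitters' processing notes the build was mm10. Not given in the sources used here: aligner, clonotype caller and error correction. Each deposited row holds a read count, not normalized, for a CDR3 (per the file headers). The deposited fraction equalled each count divided by the table's total. The deposited segment positions are other values, in bases from 0, and the V end was taken as the last V base.

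From these, clonotypes were counted once each. Shares carry exact Clopper-Pearson 95% intervals, ratios 95% log intervals and differences of means 95% normal intervals over clonotypes, which are not replicates. The ratio step was tested on simulated data drawn from fixed V shares. The draws held no variation between mice, so that test bears on counting error alone. The planned comparison with germline V ends was not run, since no germline sequence was used here. All 46 segment names matched RefSeq symbols. Named were V segments with at least 3 CAW clonotypes, the 3 names most like TRBV22, the 3 leading members per library, at most 6 recurring members and the most read members without a CAW start; clonotypes listed under several V names were picked after their values were seen. TRBV24, TRBV17, TRBV4 and TRBV28 without CAW clonotypes, the 9-base and 12-base starts, charge and D listing were looked at after the data were seen. Members and lists were chosen with earlier results of these data known. Alternatives were a minimum of 2 reads, amino acid clonotypes, reads as weights, removal of neighbours (1 base apart, same V, J and length, 10 times fewer reads or less), other members, other denominators, and rows of 24 to 60 bases. Python 3.11.15, NumPy 2.4.6, pandas 2.3.3 and SciPy 1.17.1 were used.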

Additional observations from a re-analysis of the deposited data

How the results depend on the processing

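With 8 alternatives, 30 values gave 140 comparisons, of which 107 stayed inside the interval of the reported value; each of the 5 ratios kept its call under the 6 alternatives that have an interval. Amino acid clonotypes, removal of 1-base neighbours, a denominator of all productive clonotypes and members that also start CAW moved none. Counting all CAW clonotypes in place of the members gave shares of 1.85%, 2.16%, 7.40%, 7.31% and 7.84% for WT CD8, KO CD8, KO splenic CD4, KO lung CD4 and KO Treg cells, by construction higher. With reads as weights the members' shares were 0.316%, 0.125%, 3.43%, 2.88% and 1.80% in that order, and the ratios were 0.395 (KO over WT CD8), 0.0364 (KO CD8 over CD4), 0.0433 (KO CD8 over lung CD4) and 0.524 (Treg over spleen CD4). Weighted by reads, the CAW share of members was 99.2%, 99.4% and 98.7%, the TRBJ2 share 17.3%, 85.2% and 87.0% and the mean length 11.9, 12.6 and 12.9 residues in KO CD8, KO splenic CD4 and KO lung CD4 cells; the cause was not tested. With at least 2 reads the CAW share was 100% in KO CD8 cells, and the productive share of TRBV22 rows was 74.6% in WT CD8, 80.2% in KO splenic CD4, 80.6% in KO lung CD4 and 74.7% in Treg cells. Among rows of 24 to 60 bases, which leaves out the long rows, it was 73.4%, 77.1%, 88.8%, 89.9% and 83.1% in the order of libraries above. No paired analysis was possible because each group had 1 library, and for the same reason no library could be left out of a group. The number of members, 26 in KO CD8 cells, limits each comparison there.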
